A study of Mus musculus with 1829 samples.

Results

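The wells described here held single CD4+ T cells of NOD/ShiLtJ mice, the strain that develops autoimmune diabetes, sorted from pancreatic islets or from lymph node with the IAg7 tetramer of insulin B chain residues 12-20. All groups share this strain and cell label. No allele, transgene or agent is named for them, and the labels do not say which lymph node was taken. Wells entered by a rule that singled out no gene, although its count of assays includes the genes compared below. The rule took tetramer 12-20, islets or lymph node, ages 7, 8 and 13 weeks, and both tissues of 1 animal on 1 chip. It asked for at least 20 of 96 assays detected in the well, and at least 5 such wells per animal and tissue. An assay was detected where its call was pass and its Ct, the cycle at which fluorescence crossed the threshold, was under 24. Its log2Ex was then 24 minus Ct, and otherwise 0. Of 1829 labelled wells of the whole series, 145 entered, 88 from islets and 57 from lymph node, in 5 animals. The 7-week M2 animal gave 17 islet and 17 lymph node wells. The 8-week M3 animal gave 22 and 11, the 13-week M2 animal 6 and 10, the 13-week M3 animal 24 and 8, and the 13-week M4 animal 19 and 11. The animal was the replicate (n = 5), and an animal's islet mean was paired with its lymph node mean.

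These 5 came from 9 animals with both tissues on a chip, which together held 365 such wells. The 4 animals that did not enter, all aged 7 weeks, had 0 to 4 islet wells with 20 or more assays. Near that minimum, 3 of the 365 wells had 15 to 19 assays and 6 had 20 to 24, and those 6 all came from lymph node. The 187 wells under the minimum were not empty of signal. Each of 10 assays was detected in 51.3% to 99.5% of them, while every other assay was detected in under 5%. Among the 10 were Gapdh (99.5%), Ifit3 (82.4%), Ccr2 (79.1%), Isg15 (78.6%), Ifi44 (74.3%), Cxcl10 (70.6%), Bcl2 (63.1%) and Gsk3a (51.3%).

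Insulin is a main target of T cells in the NOD mouse, and its B chain is presented to CD4+ T cells by the class II molecule IAg7. A CD4+ T cell that has not met its antigen recirculates through lymph nodes with the chemokine receptor Ccr7 and the interleukin-7 receptor Il7r. After activation it makes co-inhibitory and costimulatory receptors such as Ctla4, Pdcd1 and Icos, and it can turn to a Th1, follicular helper or regulatory program, marked by Tbx21 and Ifng, by Bcl6 and Il21, and by Foxp3.

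Not all islet wells carried the genes that their label implies. Cd3e, a subunit of the T cell receptor complex, was absent from 20 of 88 islet wells and from 6 of 57 lymph node wells. The islet wells without it were 1 of 17 in 7-week M2, 0 of 22 in 8-week M3, 2 of 6 in 13-week M2, 6 of 24 in 13-week M3 and 11 of 19 in 13-week M4. They thus made up 38.8% of islet wells at 13 weeks and 2.56% at 7 and 8 weeks. In lymph node the same counts were 1 of 17, 1 of 11, 2 of 10, 0 of 8 and 2 of 11.

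The 20 islet wells without Cd3e were well filled and distinct. Their median number of detected assays was 45, against 46.5 in the 68 islet wells with Cd3e, and the median Gapdh log2Ex was 13.9 in both. Cd4 was detected in 19 of the 20, at a median log2Ex of 12.7 against 10.5. Zap70, the kinase of the T cell receptor, was detected in 0 of 20 wells without Cd3e and in 86.8% of wells with it. Ctla4 (94.1%), Pdcd1 (77.9%), Ifng (60.3%), Tbx21 (55.9%), Foxp3 (52.9%), Il2ra (48.5%), Ccr7 (41.2%) and Il21 (30.9%) were detected in the stated shares of wells with Cd3e and in 0 of 20 without, which allows a share of up to 15%. In the other direction, the costimulatory ligand Cd86 was detected in 95% of wells without Cd3e against 4.41% with it, Cd80 in 70% against 5.88% and Cd40 in 45% against 4.41%. The transcription factor gene Zeb2 was detected in 95% against 22.1%, the chemokine receptor Ccr1 in 75% against 2.94% and the TNF receptor Tnfrsf1a in 100% against 36.8%. At least 1 of Cd86, Cd80 and Cd40 was present in 19 of 20 islet wells without Cd3e and in 7 of 68 with it. In lymph node these counts were 4 of 6 and 2 of 51.

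Those wells go against the CD4+ T cell label, and they are called here by what they lacked. Of the markers listed for myeloid and dendritic cells, only Cd80, Cd86 and Cd40 were on the panel, 3 of 6. Their summed log2Ex per islet well was 0.545 and 0.587 in the 7- and 8-week animals and 11.4, 6.19 and 13.2 in 13-week M2, M3 and M4. In lymph node it ran from 0.525 to 3.21. Cd8a appeared in 1 of 88 islet wells and 0 of 57 from lymph node, and no marker listed for B cells, NK cells or islet endocrine cells was on the panel. Because these wells lie mostly in islets at 13 weeks, the differences of the main genes below are given over all wells and over wells with Cd3e. The comparison in Cd3e wells was chosen after the values were seen. It had at least 5 wells per tissue in 4 animals (13-week M2 drops out), or at least 4 wells in 6 animals, which restores 13-week M2 and adds the 7-week M3 animal.

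**Figure D1:**
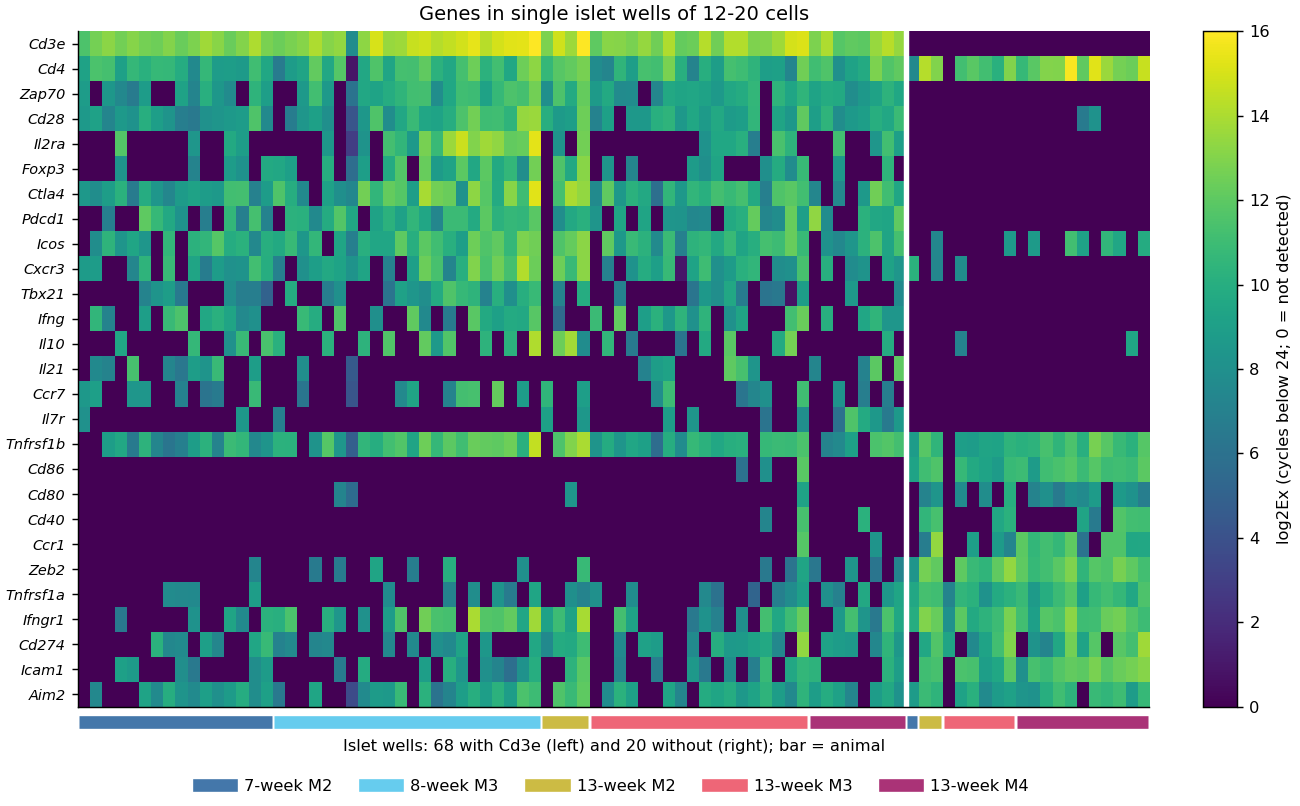
Each column is 1 islet well and each row a gene; colour gives log2Ex (cycles below 24, with 0 for not detected), and the bar under the columns gives the animal. The 68 wells with Cd3e stand left of the white line and the 20 wells without it right, where Zap70, Ctla4, Pdcd1 and Foxp3 are at 0 and Cd86 is detected in 95% of wells.

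More assays were detected in islet wells than in lymph node wells in every animal. The mean number per well was 42.2 in islets and 33.1 in lymph node of 7-week M2, 48.5 and 34 in 8-week M3, 49.8 and 34.6 in 13-week M2, 45.9 and 34.5 in 13-week M3, and 47.5 and 38.3 in 13-week M4. The islet and lymph node means did not overlap. The mean difference was 11.9 assays (SD 2.87, n = 5; p = 0.0625, exact two-sided sign-flip permutation test), and 0.0625 is the smallest p that 5 pairs allow. Over Cd3e wells of 6 animals it was 12.1 assays (p = 0.03125, the same exact permutation test).

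**Figure D2:**
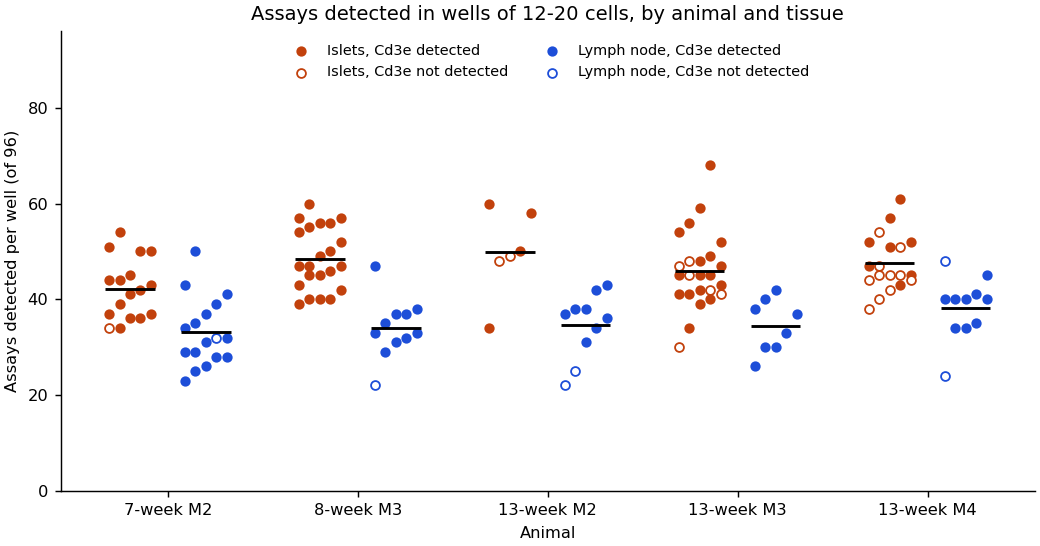
Number of assays detected per well of 96, for each animal, with islets and lymph node side by side; filled points are wells with Cd3e, open points wells without it, and the black line is the mean. Islet means lie between 42.2 and 49.8 and lymph node means between 33.1 and 38.3.

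Of the 78 genes detected in at least 5% of wells of either tissue, 38 were higher in islets (48.7%) and 3 lower (3.85%) at an adjusted p under 0.05 (limma on the paired differences, Benjamini-Hochberg over the 78). The median difference of all 78 genes was 1.85 log2Ex, so a gene had to exceed that to stand above the general shift. In Cd3e wells of 4 animals 33 of 70 genes were higher (47.1%) and 2 lower (2.86%), and 29 of these 35 were among the 41 of all wells. Over Cd3e wells of 6 animals 47 of 72 were higher (65.3%) and 3 lower (4.17%). With each animal's tissue mean centred on its mean over genes, 7 genes passed, 2 higher (Tnfrsf1b and Aim2) and 5 lower (Ccr7, Il7r, Cxcl10, Ifi44 and Map2k6). Centred in this way in Cd3e wells of 6 animals, 24 genes passed, 9 higher and 15 lower. When the tissue difference was adjusted within each animal for the number of other assays in the well, no gene passed in limma, although 20 had an unadjusted p under 0.05. The number of detected assays moved with the tissue in every animal, and the values below are unadjusted unless stated.

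Of the co-inhibitory and costimulatory receptors, Ctla4, Pdcd1 and Icos were higher in islets in both sets of wells. Ctla4, which competes with Cd28 for the ligands Cd80 and Cd86, had a mean log2Ex in Cd3e wells of 8.84, 10.50, 9.65, 9.90 and 7.07 in islets and of 2.94, 1.5, 2.0, 1.69 and 5.30 in lymph node (order of animals throughout: 7-week M2, 8-week M3, 13-week M2, M3, M4). The groups did not overlap, and 13-week M4 had both the lowest islet and the highest lymph node mean. Its difference was 6.22 ± 1.15 (SE, n = 4; limma adjusted p = 0.00798) in Cd3e wells and 4.78 ± 1.23 (n = 5, adjusted p = 0.0123) in all wells. In all wells 13-week M4 went the other way, at 2.98 in islets and 4.34 in lymph node.

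Pdcd1, the inhibitory receptor PD-1, had means in Cd3e wells of 5.63, 9.19, 6.92, 7.07 and 7.80 in islets and of 1.10, 0.83, 1.14, 1.24 and 5.86 in lymph node. The first 4 lymph node values are close together and 13-week M4 stands apart from them. The difference of Pdcd1 was 5.16 ± 0.982 (n = 4, limma adjusted p = 0.00798), and 3.79 ± 1.15 (adjusted p = 0.0243) in all wells, where 13-week M4 was again lower in islets (3.29 against 4.79). Icos, a costimulatory receptor of the Cd28 family, was higher in islets in every animal in all wells, at 7.37, 10.06, 7.41, 7.58 and 6.59 against 2.19, 4.21, 2.46, 3.49 and 5.30. The difference of Icos was 4.27 ± 0.718 (adjusted p = 0.00514), and 4.72 (adjusted p = 0.00638) in Cd3e wells of 4 animals. Cd28 itself did not pass in all wells (0.17, limma adjusted p = 0.833) and was higher in Cd3e wells of 4 animals by 1.58 (adjusted p = 0.0344).

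Cxcr3, the chemokine receptor of Th1 cells that responds to Cxcl10, had islet means in all wells of 6.99, 8.75, 7.31, 5.78 and 2.30 and lymph node means of 1.83, 1.95, 2.29, 1.31 and 4.87. Again only 13-week M4 was lower in islets, and within its Cd3e wells the order turned (5.46 against 4.65). The difference of Cxcr3 was 3.77 (limma adjusted p = 0.0271) and, in Cd3e wells of 4 animals, 4.55 (adjusted p = 0.0109). The calls over all wells rested on few animals. Without 13-week M3 the adjusted p was 0.053 for Ctla4, 0.065 for Pdcd1 and 0.073 for Cxcr3, and without 13-week M2 it was 0.057, 0.079 and 0.104. Without 7-week M2 it was 0.058 for Pdcd1 and 0.073 for Cxcr3. After centring in Cd3e wells of 6 animals, Ctla4 (4.56, adjusted p = 0.0049), Pdcd1 (3.75), Icos (3.70) and Cxcr3 (3.0) were still higher. With the number of other assays taken into account in those wells, none of them passed: Ctla4 was 2.35 (adjusted p = 0.461), Pdcd1 2.66 (0.164), Icos 0.94 (0.748) and Cxcr3 0.38 (0.877). Over all wells whose number of assays lay in the range that both tissues of an animal cover, all 4 turned sign, to -0.53 for Ctla4, -0.42 for Pdcd1, -0.43 for Icos and -1.73 for Cxcr3 (adjusted p of 0.883 to 0.940).

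**Figure D3:**
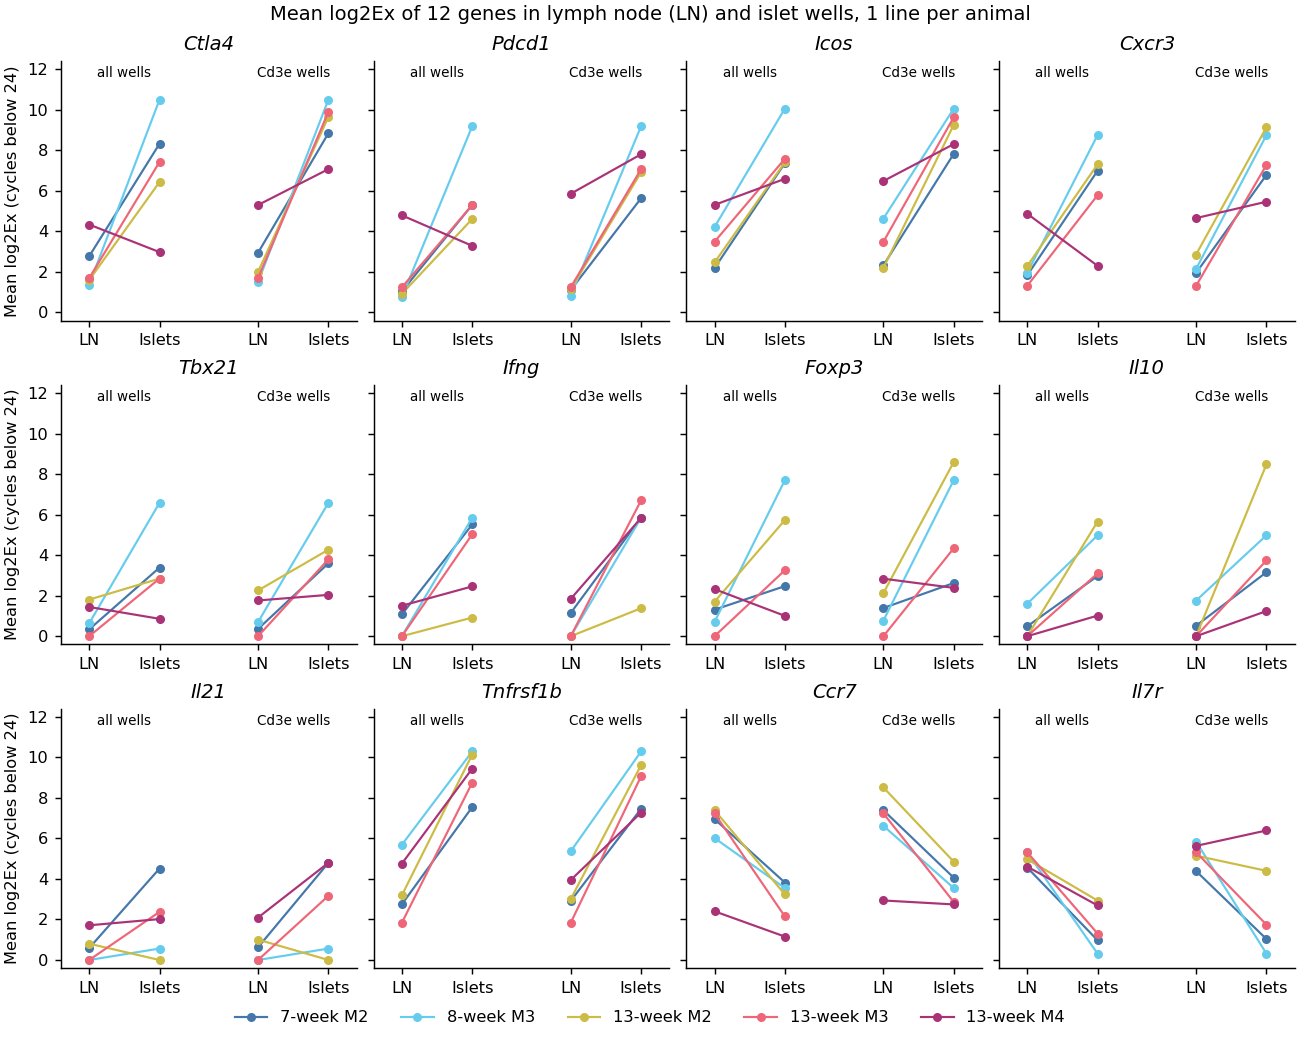
Mean log2Ex (cycles below 24) of 12 genes in lymph node (LN) and islet wells, 1 line per animal, with all wells on the left and wells with Cd3e on the right of each panel. Ctla4, Pdcd1 and Cxcr3 fall from lymph node to islets in 13-week M4 over all wells and rise in its Cd3e wells, while Ccr7 falls in every animal in both.

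Within single wells pooled over animals, these 4 receptors tended to be found together in lymph node. There, Icos was detected in 90% of Cd3e wells with Pdcd1 and 34.1% without, and Cxcr3 in 50% and 19.5%. Of the 10 wells with Pdcd1, 5 came from 13-week M4. In that animal Icos was detected in 80% with Pdcd1 and 75% without, and Cxcr3 in 20% and 75%. Each other animal had 1 or 2 wells with Pdcd1, and both shares were higher with it. In islets each receptor was frequent, and the shares hardly differed: 90.6% and 86.7% for Icos, and 79.2% and 80% for Cxcr3. The set was chosen after its values were seen, so the counts are a description. In islets, 39 of 68 Cd3e wells held all 4 of Pdcd1, Ctla4, Icos and Cxcr3, 20 held 3, 8 held 2 and 1 held none. In lymph node, 25 of 51 Cd3e wells held none and 9 held 1, none held 2, 13 held 3 and 4 held all 4. The lymph node wells thus fell into wells with 0 or 1 receptor and wells with 3 or 4. Wells with 3 or 4 made up 31.2%, 20%, 25% and 12.5% of Cd3e lymph node wells in the first 4 animals and 77.8% (7 of 9) in 13-week M4. The corresponding shares in islets were 75%, 100%, 75% and 94.4%, and 5 of 8 wells in 13-week M4.

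**Figure D4:**
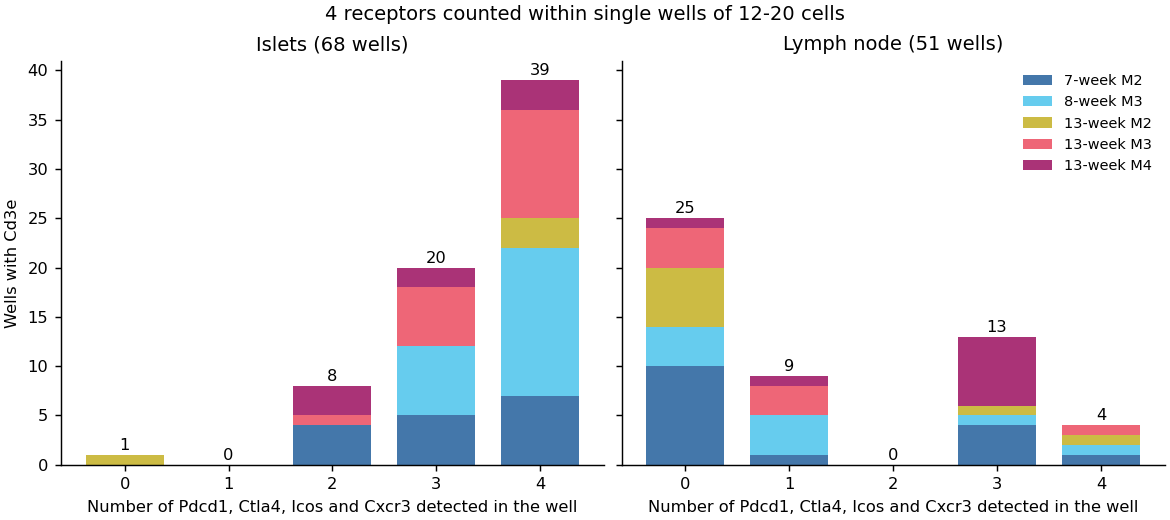
Number of wells with Cd3e that hold 0 to 4 of Pdcd1, Ctla4, Icos and Cxcr3, stacked by animal, in islets (68 wells) and lymph node (51 wells). Islet wells pile up at 3 and 4 receptors (20 and 39 wells), and lymph node wells at 0 (25 wells) with a separate group at 3 (13 wells), of which 7 come from 13-week M4.

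The lymph node wells with 0 or 1 of the receptors looked different from those with 3 or 4 in other genes too. Ccr7 was detected in 94.1% and Il7r in 73.5% of the 34 wells with 0 or 1, and Ifng, Il10, Il21 and Tbx21 in 0 of 34, which allows a share of up to 8.82%. In the 17 lymph node wells with 3 or 4, Ccr7 was detected in 41.2%, Il7r in 35.3%, Foxp3 in 41.2%, Tbx21 in 35.3% and Ifng in 23.5%. The 59 islet wells with 3 or 4 held Ccr7 at a like share of 40.7% but Ifng in 66.1%, Foxp3 in 57.6% and Il7r in 18.6%. The level of Ctla4 where detected was a mean log2Ex of 7.86 in those lymph node wells and 10.3 in the islet wells. The mean number of detected assays rose in the same order, from 32.6 through 41.1 to 48.2, and its part in these shares was not tested.

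Among Th1 and effector genes, Ifng, the cytokine that defines Th1 cells, was higher in islets in all 5 animals. Among Cd3e wells, the islet counts with Ifng were 10 of 16, 13 of 22, 1 of 4, 12 of 18 and 5 of 8, and the lymph node counts 2 of 16, 0 of 10, 0 of 8, 0 of 8 and 2 of 9. The corresponding means were 5.86, 5.84, 1.38, 6.70 and 5.84 against 1.15, 0, 0, 0 and 1.84, so 13-week M2, with 4 islet wells, was the only animal whose islet mean of Ifng fell within the lymph node range. The difference was 5.31 ± 0.602 (n = 4, limma adjusted p = 0.00321) in Cd3e wells and 3.44 ± 0.845 (n = 5, adjusted p = 0.011) in all wells, where it did not pass without 13-week M3 (3.04, adjusted p = 0.053). With the number of other assays taken into account, the Ifng difference in Cd3e wells of 6 animals was 3.64 (adjusted p = 0.0583).

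Tbx21, the transcription factor of the Th1 program, had means in Cd3e wells of 3.60, 6.58, 4.27, 3.79 and 2.04 in islets and 0.36, 0.70, 2.26, 0 and 1.76 in lymph node. It was higher in islets in each animal, and in 13-week M4 by little. The Tbx21 difference was 3.30 (limma adjusted p = 0.0218) in Cd3e wells of 4 animals and 2.46 (adjusted p = 0.0402) in all wells, where leaving out any animal but 13-week M4 ended the call (adjusted p of 0.072 to 0.125; 1.59 without 8-week M3). Tnf, a cytokine of activated effector cells, was higher by 2.18 in all wells (adjusted p = 0.0283), with islet means of 3.42 to 6.66 above all lymph node means of 1.46 to 3.30. Without 7-week M2, the animal with the largest gap, the Tnf difference was 1.43 (adjusted p = 0.065), and without 13-week M3 2.37 (adjusted p = 0.061). Stat4, which relays interleukin-12, did not pass in all wells (1.69, limma adjusted p = 0.0754) and was higher by 2.93 (adjusted p = 0.00638) in Cd3e wells of 4 animals. Of the 7 tested genes of this list, 5 were higher and none lower in all wells, where 48.7% of all genes were higher, with a median difference of 2.18 against 1.85 over all genes. Within Cd3e wells of 4 animals the count was the same, beside 47.1% of all genes, and the median 2.93 against 1.69. Il2, the growth factor of activated T cells, appeared in 1 islet well and in no lymph node well, and was not tested.

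Co-detection of Th1 genes was partial. In the 68 Cd3e islet wells, Ifng was detected in 41 and Tbx21 in 38, and both in 25. Of the 41 wells with Ifng, 38 had Pdcd1 and 29 had Tnf, 16 had Foxp3, 16 had Il21 and 13 had Il10. Pooled over animals, Foxp3 and Il10 were less frequent in these wells than in Cd3e islet wells without Ifng. Pdcd1, Tnf and Il21 were more frequent in the wells with Ifng.

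Genes of regulatory T cells were found in islet wells of every animal. Foxp3, their lineage factor, had means in all wells of 2.47, 7.70, 5.73, 3.26 and 1.0 in islets and 1.31, 0.70, 1.70, 0 and 2.32 in lymph node. The 8-week M3 and 13-week M2 animals were highest, and 13-week M4 was lower in islets, also in its Cd3e wells (2.39 against 2.84). The Foxp3 difference in all wells was 2.83 ± 1.04 (limma adjusted p = 0.0459), and leaving out any animal but 13-week M4 ended the call (adjusted p of 0.058 to 0.156; 1.78 without 8-week M3). In Cd3e wells of 4 animals it was 3.01 (adjusted p = 0.0579), and in those of 6 animals 3.66 (adjusted p = 0.0112).

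Il10, an anti-inflammatory cytokine, was found in islets in 5 of 17, 10 of 22, 3 of 6, 8 of 24 and 2 of 19 wells and in lymph node in 1 of 17, 2 of 11, 0 of 10, 0 of 8 and 0 of 11. Its difference in mean log2Ex was 3.13 ± 0.697 (limma adjusted p = 0.00798), with all 5 animals higher in islets, and 2.71 (adjusted p = 0.0109) in Cd3e wells of 4 animals. Il2ra, a subunit of the receptor for interleukin-2, did not pass in all wells (2.0, adjusted p = 0.0507) and was higher in Cd3e wells of 4 animals by 2.61 (adjusted p = 0.0218). Of the 4 tested genes of the regulatory list, 3 were higher in all wells, Ctla4 among them, where 48.7% of all genes were, with a median difference of 2.98 against 1.85. The count was also 3 of 4 in Cd3e wells of 4 animals, beside 47.1% of all genes, with a median of 2.86 against 1.69.

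Il10 and Foxp3 lay largely in the same islet wells. Of 26 Cd3e islet wells with Il10, 24 had Foxp3, and of 36 wells with Foxp3, all 36 had Ctla4, 27 had Il2ra and 24 had Il10. In Cd3e islet wells without Foxp3, Ctla4 was also frequent (87.5%), while Il2ra (18.8%) and Il10 (6.25%) were not. Il10 and Il21 shared only 2 wells of the 26 and 21 that held them. In the 51 Cd3e lymph node wells Foxp3 was detected in 9, of which 8 had Ctla4, 4 had Il2ra and 1 had Il10. Without Foxp3 the shares there were 23.8%, 14.3% and 4.76%.

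Of the 4 tested genes of the follicular helper list 3 were higher in all wells (Bcl6, Icos and Pdcd1), beside 48.7% of all genes. Their median difference was 3.16 against 1.85. In Cd3e wells of 4 animals all 4 were higher, beside 47.1% of all genes, with a median of 3.69 against 1.69. Il21 moved unevenly between animals. Il21, a cytokine that helps B cells, had means in all wells of 4.51, 0.56, 0, 2.38 and 2.02 in islets and 0.59, 0, 0.80, 0 and 1.71 in lymph node, and the difference did not pass (1.27, limma adjusted p = 0.161). In Cd3e wells the Il21 means were 4.79, 0.56, 0, 3.17 and 4.80 against 0.63, 0, 1.01, 0 and 2.09. The animals differed widely: Il21 was detected in 9 of 16 Cd3e islet wells of 7-week M2, in 2 of 22 of 8-week M3 and in 0 of 4 of 13-week M2. Over the 4 animals of the Cd3e comparison it was higher by 2.65 (adjusted p = 0.0186). Bcl6, the transcription factor of follicular helper cells, was higher by 2.54 ± 0.615 in all wells (limma adjusted p = 0.011) and by 1.99 (adjusted p = 0.0181) in Cd3e wells. Bcl6 was also detected in 75% of the islet wells without Cd3e, against 36.8% with it. Of 21 islet wells with Il21, 8 had Bcl6 and 16 had Pdcd1. These shares of 38.1% and 76.2% were close to the 36.2% and 78.7% of Cd3e islet wells without Il21.

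Ccr7 and Il7r were lower in islets, and with Cxcl10 they were the only 3 of 78 genes to pass in that direction. Ccr7, which guides T cells into and within lymph nodes, had means in all wells of 3.82, 3.55, 3.23, 2.15 and 1.15 in islets and 6.95, 6.02, 7.39, 7.23 and 2.4 in lymph node. It was lower in islets in every animal, and the 13-week M4 lymph node value lay far below the other 4. The difference was -3.22 ± 0.657 (limma adjusted p = 0.00618), and -2.74 (adjusted p = 0.022) in Cd3e wells of 4 animals. Il7r, which carries the survival signal of interleukin-7, had means of 0.97, 0.32, 2.93, 1.31 and 2.69 in islets and 4.56, 5.31, 4.97, 5.32 and 4.61 in lymph node. The groups did not overlap, and the Il7r difference was -3.31 ± 0.62 (adjusted p = 0.00562).

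In Cd3e wells Il7r was lower by less (-2.92, limma adjusted p = 0.0447), and 13-week M4 went the other way, at 6.39 in islets and 5.63 in lymph node. Both genes were well below the general shift: after centring they were -4.98 (Ccr7, adjusted p = 0.0049) and -5.07 (Il7r, adjusted p = 0.0037). They kept their sign after adjustment for the number of other assays, at -3.48 and -3.32 (adjusted p = 0.0853 for both). The same adjustment in Cd3e wells of 6 animals gave -1.75 for Ccr7 (adjusted p = 0.548) and -1.88 for Il7r (0.461), and wells of the shared range of assays -1.03 and -1.52 (0.940 and 0.904). Bcl2, a survival factor on the same list, did not pass (0.31, adjusted p = 0.65; Cd3e wells of 4 animals 0.56, adjusted p = 0.446). The Bcl2 assay was also detected in 63.1% of wells under 20 assays. In lymph node, 26 of 51 Cd3e wells held both Ccr7 and Il7r, and of the 39 with Ccr7 only 3 held Pdcd1. In islets 21 of 28 Cd3e wells with Ccr7 also held Pdcd1 and 27 held Ctla4. These shares of 75% and 96.4% were close to the 80% and 92.5% of Cd3e islet wells without Ccr7.

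Tnfrsf1b, the second TNF receptor, had the largest difference over all wells of the genes named here. Its means in all wells were 7.54, 10.29, 10.14, 8.75 and 9.44 in islets and 2.75, 5.69, 3.19, 1.84 and 4.75 in lymph node, with no overlap. The difference was 5.59 ± 0.608 (n = 5, limma adjusted p = 0.00048), and 5.0 (adjusted p = 0.00629) in Cd3e wells of 4 animals. It was above the general shift after centring (3.83, adjusted p = 0.0044), and after adjustment for the number of other assays it was 3.45 (adjusted p = 0.0616). The same adjustment in Cd3e wells of 6 animals gave 1.76 for Tnfrsf1b (adjusted p = 0.461), and wells of the shared range of assays 1.59 (0.883). Tnfrsf1a, the first TNF receptor, was higher by 2.30 in all wells (adjusted p = 0.032) and by 1.65 in Cd3e wells of 4 animals (adjusted p = 0.0628), and it was detected in all 20 islet wells without Cd3e. Traf2, an adaptor below these receptors, was higher by 3.08 (adjusted p = 0.00949) and 2.52 (adjusted p = 0.0133), and Nfkb1, a subunit of the NF-kB factor, by 3.75 (adjusted p = 0.00616) and 3.36 (adjusted p = 0.0145).

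Of the 5 tested genes of the activation and memory list 3 were higher in all wells (Irf4, Nr4a1 and Cd44), beside 48.7% of all genes, with a median difference of 2.0 against 1.85. Of the 6 tested genes of T cell receptor signalling 3 were higher, with a median of 1.72. Irf4, a transcription factor whose level follows receptor signalling, had means in Cd3e wells of 6.02, 4.32, 7.65, 6.44 and 4.83 in islets and 1.48, 2.76, 0.89, 0 and 0 in lymph node. The groups did not overlap, and the Irf4 difference was 4.34 ± 0.806 (n = 4, limma adjusted p = 0.00798). In all wells it was 3.79 (adjusted p = 0.00562). Nr4a1, the immediate early gene also known as Nur77, was higher by 3.10 in all wells (adjusted p = 0.011) and by 3.61 in Cd3e wells (adjusted p = 0.0477). In 7-week M2, however, Nr4a1 was 4.78 in islets and 4.69 in lymph node, and its Cd3e wells had 4.67 against 4.98. Zap70 in Cd3e wells was 6.40, 8.68, 10.37, 8.22 and 9.28 in islets and 2.63, 6.08, 6.60, 4.17 and 6.39 in lymph node, higher in islets in each animal. Its difference was 3.33 (adjusted p = 0.00638) there, and 1.65 (adjusted p = 0.092) in all wells. Cd44, a marker of antigen-experienced cells, was higher by 1.71 in all wells (adjusted p = 0.0413), near the median of all genes, and by 1.33 in Cd3e wells (adjusted p = 0.0628). Without any one of 8-week M3, 13-week M2 or 13-week M3 the Cd44 call was lost (adjusted p of 0.084 to 0.106). Cd4 was higher by 2.07 in all wells (adjusted p = 0.0116; without 13-week M3 1.96, adjusted p = 0.053) and by 1.84 in Cd3e wells of 4 animals (adjusted p = 0.0489); its median log2Ex was higher in islet wells without Cd3e, as given above.

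Cd3e itself showed how much the mix of wells matters. Over all wells its means were 12.09, 13.93, 9.57, 10.02 and 5.47 in islets against 11.01, 11.44, 10.04, 11.37 and 9.97 in lymph node, a difference of -0.55 that did not pass (limma adjusted p = 0.640) and turned to 0.44 without 13-week M4. Where it was detected, Cd3e was higher in islets in each of the 5 animals, by 1.42 log2Ex. Gapdh, the reference gene, did not differ detectably (0.72, adjusted p = 0.269), and it was also detected in nearly all wells that held under 20 assays.

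Several genes higher in islets over all wells were also frequent in wells without Cd3e. Ifngr1, a chain of the interferon-gamma receptor, had islet means of 3.05, 8.01, 11.41, 6.58 and 9.58 and lymph node means of 4.24, 3.05, 2.74, 0.71 and 3.14, with 7-week M2 lower in islets. Its difference was 4.95 ± 1.2 (limma adjusted p = 0.011; without 13-week M2 4.02, adjusted p = 0.055), and 3.34 (adjusted p = 0.0441) in Cd3e wells of 4 animals. Its assay was positive in 100% of islet wells without Cd3e and 60.3% with it. Zeb2 was at 0.92, 2.15, 5.93, 3.37 and 8.24 in islets against 0.47, 0.75, 0, 0 and 0.92, a difference of 3.69 (adjusted p = 0.0152). In Cd3e wells of 4 animals the Zeb2 difference was 1.71 (adjusted p = 0.0603), less than in all wells by more than 1.5 times, and in those of 6 animals 1.92 (adjusted p = 0.0112). Over all wells the Zeb2 call was lost without 13-week M2 (3.13, adjusted p = 0.072) and without 13-week M3 (3.77, adjusted p = 0.053).

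Cd274, the PD-1 ligand, was higher by 3.97 in all wells (limma adjusted p = 0.0219; without 13-week M3 adjusted p = 0.061, and without 13-week M2 2.49, adjusted p = 0.048) and by 1.95 in Cd3e wells of 4 animals (adjusted p = 0.0372). Icam1, an adhesion molecule, was higher by 3.44 (adjusted p = 0.00562) and 2.38 (adjusted p = 0.0103), and it was detected in 90% of islet wells without Cd3e and 44.1% with it. Cd80 and Cd86, detected mainly in wells without Cd3e, did not pass in all wells (1.67 and 1.89, adjusted p = 0.054 and 0.0726).

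The interferon-stimulated and innate genes did not move as a block. Of 12 tested, 5 were higher and 1 lower in all wells, beside 48.7% and 3.85% of all genes, and their median difference was 0.97 against 1.85. Among Cd3e wells of 4 animals 3 of 11 were higher and none lower, with a median of 0.54 against 1.69. Aim2, a sensor of cytosolic DNA, was higher by 3.39 (limma adjusted p = 0.00514), with islet means of 6.58 to 9.30 above all lymph node means of 2.78 to 5.90, and by 3.11 (adjusted p = 0.00638) in Cd3e wells of 4 animals. Irf1, a factor induced by interferon-gamma, was higher by 2.74 (adjusted p = 0.0062). Within Cd3e wells of 4 animals Irf1 was higher by 2.50 (adjusted p = 0.0109). Ly6e, an interferon-induced surface protein not on that list, was higher by 2.65 (adjusted p = 0.0271), but by 1.67 without 13-week M2 (adjusted p = 0.057), and in Cd3e wells of 4 animals it did not pass (2.92, adjusted p = 0.0526). Isg15 (0.07, adjusted p = 0.918) and Ifit3 (0.18, adjusted p = 0.791), classical targets of type I interferon, did not pass, nor did they in Cd3e wells (-0.69 and -0.43, adjusted p = 0.356 and 0.456). Both assays were also detected in most wells under 20 assays (78.6% and 82.4%), as was Ifi44 of this list (74.3%). The part of that signal in their differences and in the median of the list was not tested. Cxcl10, a ligand of Cxcr3, was the one lower gene, at 6.92, 4.66, 5.82, 4.15 and 3.07 in islets against 7.06, 5.42, 6.87, 8.09 and 6.63 in lymph node (-1.89, adjusted p = 0.0478). That Cxcl10 call was lost without any one of the 13-week animals (adjusted p of 0.079 to 0.182), it was not made in Cd3e wells of 4 animals (-1.73, adjusted p = 0.0571), and the assay was detected in 70.6% of wells under 20 assays.

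Of 8 tested chemokine receptors 2 were higher and 1, Ccr7, lower in all wells, where 48.7% of all genes were higher. Among the rest, Cxcr4 was at 1.91 (limma adjusted p = 0.0989; in Cd3e wells of 4 animals 0.86, adjusted p = 0.46) and Ccr2 at 1.24 (adjusted p = 0.104; Cd3e wells 0.97, adjusted p = 0.164). The Ccr2 assay was also detected in 79.1% of wells under 20 assays. Of 3 tested Th2 genes none passed in either set of wells (limma, median difference -0.30 in all wells), with Ccr4 at 0.51 (adjusted p = 0.494) and the interleukin-4 receptor chain Il4ra at -0.30 (adjusted p = 0.756). Ccr4 in Cd3e wells of 4 animals was at 1.29 (adjusted p = 0.0604) and Il4ra at -1.65 (adjusted p = 0.0704). Of 2 tested Th17 genes 1 passed, Stat3 (1.94, adjusted p = 0.0271; Cd3e wells 1.72, adjusted p = 0.0477), which also acts outside that program. Il4 and Il17a were found in none of the 88 islet and 57 lymph node wells. Of 7 tested Jak, Stat and feedback genes 4 were higher in all wells, near the 48.7% of all genes, with a median difference of 1.80 against 1.85. In Cd3e wells 3 of 7 were higher, beside 47.1% of all genes.

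A difference in mean log2Ex holds both how many wells detect a gene and how strongly, and these were separated. The share of wells with detection differed for 22 of 78 genes (28.2%), 20 higher and 2 lower in islets (limma, adjusted p under 0.05). Detection differed most for Tnfrsf1b, whose mean share was 89.6% in islets and 43.7% in lymph node (45.9 points, adjusted p = 0.0096). Il7r was lower by 38.5 points (adjusted p = 0.0096) and Ccr7 by 37.6 points (adjusted p = 0.0209, and over 0.05 without 8-week M3, 13-week M2 or 13-week M3). Irf4 was higher by 37.6 points, Ifng by 36.2, Zeb2 by 35.5, Cd44 by 35.2, Icos by 33.4, Icam1 by 29.6 and Il10 by 28.9. Of these, Ifng and Zeb2 each lost the call in 4 of 5 fits that left out an animal, and Irf4 in 3. Ctla4 (38.6 points, adjusted p = 0.0903), Pdcd1 (40.2 points, 0.0714) and Cxcr3 (40.6 points, 0.0714) did not pass over all wells. Among Cd3e wells of 4 animals 17 of 70 genes differed in share (24.3%), and there Pdcd1 (53.9 points, adjusted p = 0.0448), Cxcr3 (51.3 points, 0.0447) and Ifng (54.0 points, 0.0186) passed and Ctla4 did not (55.3 points, 0.056).

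The level in positive wells was tested for 55 genes with at least 2 positive wells in both tissues of at least 3 animals, and 20 were higher in islets (36.4%) and none lower. In this fit over all wells limma gave every gene the same pooled variance, so genes with n = 5 share an SE of 0.446. That SE is not the spread of a single gene between animals, and the adjusted p values and the count of 20 rest on the pooling. Ctla4 had a mean level of 10.4 in positive islet wells and 7.61 in positive lymph node wells, 2.79 ± 0.446 log2 units or 6.94-fold (n = 5, limma adjusted p = 1.18e-07). Tnfrsf1b was 4.49-fold (2.17 log2, adjusted p = 6.41e-05) and Icos 4.01-fold (2.0 log2, adjusted p = 0.00016) higher. Nr4a1 (2.05 log2, adjusted p = 0.000137; 1.26 without 13-week M4, adjusted p = 0.0319), Icam1 (1.64, but 1.19 and adjusted p = 0.053 without 13-week M2), Cd4 (1.61), Cd3e (1.42, adjusted p = 0.00918) and, in 3 animals, Foxp3 (1.65, adjusted p = 0.0165) were higher as well. Ccr7 (-0.13, adjusted p = 0.805) and Il7r (0.11, adjusted p = 0.826) did not pass in level. In Cd3e wells of 4 animals 6 of 52 genes differed in level (11.5%), among them Ctla4 (2.27, adjusted p = 0.00174), Icos (1.77, adjusted p = 0.00657), Tnfrsf1b (1.41), Fyn, a kinase of T cell receptor signalling (1.37), and Cd3e (1.33), the last 3 at an adjusted p of 0.0172. Median melting temperatures of the products in islet and lymph node wells lay within 0.192 °C of each other for all 64 genes with at least 5 wells in each.

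**Figure D5:**
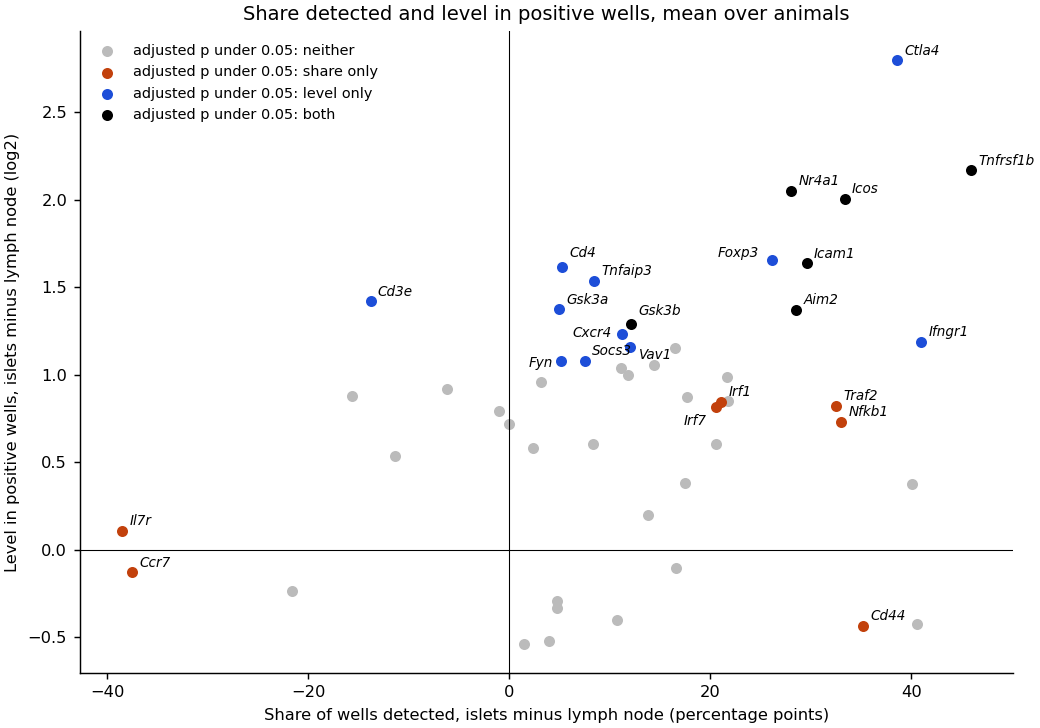
Each point is 1 of 51 genes; the x axis gives the difference in the share of wells that detect it (percentage points) and the y axis the difference in level where detected (log2), islets minus lymph node, mean over animals, and colour shows which of these has an adjusted p under 0.05. Tnfrsf1b and Icos lie high on both axes, Ctla4 is highest in level, and Ccr7 and Il7r lie to the left near 0 in level.

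The 8-week M3 animal also had 12-20 wells from spleen and blood on the same chip, so that 4 tissues could be set side by side in 1 animal, with no test. After the same minimum there were 22 islet, 11 lymph node, 10 spleen and 24 blood wells. Ctla4 was detected in 21, 2, 0 and 3 of them and Pdcd1 in 20, 1, 0 and 3. Both were frequent in islets and rare in the other tissues. Cxcr3 was detected in 19, 2, 1 and 14 wells, Icos in 21, 6, 3 and 19, Tbx21 in 16, 1, 0 and 13, and Ifng in 13, 0, 0 and 9, so these genes were shared by islet and blood wells. Foxp3 was detected in 17, 1, 2 and 2 wells and Il10 in 10, 2, 0 and 2. Il7r went the other way, with 1 of 22 islet wells, 6 of 11 lymph node wells, 3 of 10 spleen wells and 21 of 24 blood wells. The median number of detected assays was 47 in islets, 33 in lymph node, 32.5 in spleen and 43.5 in blood, and its part in these counts was not tested.

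The nearest cells of the series are those that bound the tetramer of residues 13-21, of which 4 of the animals (all but 8-week M3) had 143 wells on the same chips. The islet against lymph node difference of 12-20 wells was set against that of 13-21 wells within each animal. No gene of 78 passed (0%; limma, 5 with an unadjusted p under 0.05). Ctla4 differed between tissues by 3.69 in 12-20 and 3.65 in 13-21 wells of these animals, Icos by 3.88 and 4.02 and Ifng by 2.83 and 3.0. Irf4 differed by 4.28 and 1.76, a gap of 2.52 ± 0.906 with 12-20 wells ahead in 4 of 4 animals (adjusted p = 0.594), and Stat3 by 1.56 and 3.76, with 12-20 wells behind in 4 of 4 (adjusted p = 0.594). In Cd3e wells, at least 4 per tissue in 4 animals, no gene passed either. There Irf4 differed by 5.64 and 1.90, a gap of 3.75 ± 0.868 (limma adjusted p = 0.0973), and Stat3 by 1.34 and 3.86 (0.218). Islet wells of 13-21 cells without Cd3e numbered 2 of 18, 4 of 8, 1 of 24 and 6 of 23.

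The tissue difference at 13 weeks (3 animals) was also compared with that at 7 and 8 weeks (2 animals), where age and chip cannot be told apart. No gene of 78 passed (0%; limma, 13 with an unadjusted p under 0.05, and 1 gene without 8-week M3). The widest gap over all wells was in Ifngr1, which differed by 7.0 at 13 weeks and 1.89 at 7 and 8 weeks. Next came Cd274, at 5.94 and 1.03. Gaps were also wide in genes that marked wells without Cd3e: Zeb2 at 5.54 and 0.92, Ccr1 at 3.62 and -0.47, and Cd86 at 3.28 and -0.20. The limma adjusted p was 0.192 for each of these genes. Cd3e went the other way, at -2.10 and 1.78, as did Ctla4 (3.07 and 7.34) and Pdcd1 (2.08 and 6.35). In Cd3e wells of 4 animals, without 13-week M2, the Zeb2 differences were 2.37 and 1.05 and those of Cd3e 1.40 and 1.25. The widest gap there was in Nr4a1, at 6.01 and 1.21 (limma adjusted p = 0.306). Over Cd3e wells of 6 animals Nr4a1 was at 6.83 and 0.84 (limma adjusted p = 0.171). The tissue difference of Ifng in Cd3e wells of the same 4 animals was 5.35 at 13 weeks and 5.28 earlier, and that of Ctla4 4.99 and 7.45. Neither gap passed the threshold (limma adjusted p = 0.992 for both). In Cd3e wells of 6 animals the differences were 4.03 and 5.34 for Ifng and 5.88 and 7.01 for Ctla4 (limma adjusted p = 0.978 for both gaps).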

How the data were processed

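Ct values and melting temperatures of 96 assays per well were taken as the authors deposited them, 1 table per chip. The tables were exported, per the file headers, from Fluidigm Real-Time PCR Analysis (version 4.0.1), which called each value pass or fail at a quality threshold of 0.65. The labels' protocols name EvaGreen chemistry; the authors' later steps do not enter these tables. Wells were matched to labels by name: on the 9 chips used, 748 wells matched, and the other 116 were left out. Of 96 assays, 95 matched a mouse symbol.

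Ct was turned into log2Ex as 24 minus Ct, with 0 for Ct of 24 or more or a fail call, with no reference gene scaling. A unit was the mean over wells of 1 animal and tissue. Paired differences between tissues were tested with limma 3.58.1 in R 4.3.3 (the animal as a fixed block), with Benjamini-Hochberg adjustment and a threshold of 0.05. For level in positive wells, animals with under 2 positive wells in either tissue were left out for that gene. Pairing comes from the labels: both tissues of an animal lie on 1 chip. Deviations of an animal's tissues correlated at a median of 0.179, against -0.0513 between animals. Each gene was first centred over the animals of a tissue, which ties these values together, so the second is no independent baseline. The own tissue was the best match in 3 animals, and 13-week M3 correlated at -0.0238. Depth is the number of assays per well; limits for a count of 0 allow 3 counts and cover counting error only, as wells of an animal are not independent. Only the main comparisons of mean log2Ex, share and level were run on simulated data, with genes raised in level alone. Genes were named by a rule: the calls with the largest differences, and 18 genes whatever their p. Some genes that the rule selects are not reported here. The wells, gene lists and tests were chosen with earlier results of these data known.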

Additional observations from a re-analysis of the deposited data

Results flagged for a closer look

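Dixon's test over the 5 animals was applied to the named genes in each tissue, 72 groups in all, of which chance alone marks about 1 in 20, and 4 values lay far from the others. In lymph node, 3 of them came from the 13-week M4 animal: Pdcd1 at 4.79 (other animals 0.76 to 1.24), Cxcr3 at 4.87 (1.31 to 2.29) and Ccr7 at 2.4 (6.02 to 7.39), all as mean log2Ex over all wells. The 11 wells behind them had the most detected assays of the lymph node groups, at a mean of 38.3, and 2 of the 11 lacked Cd3e. The part of either in these values was not tested. In islets, Icos stood high in the 8-week M3 animal, at 10.06 against 6.59 to 7.58 in the others; all 22 of its wells held Cd3e.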

How the results depend on the processing

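Of 117 alternatives for the counts and the number of assays, 85 were the same, 28 weaker and 4 stronger. A count near the reported one, such as 34 against 41, was taken as the same. Direction was checked only for the number of assays, where it never changed. For the genes, the balance of higher and lower calls turned with centred units, as given above. The 41 genes that differ in mean log2Ex became 25 with at least 30 assays per well, 23 without a filter on genes, 22 with wells shifted to equal Gapdh, 7 with centred units, 4 with the median over wells, 1 with at least 10 wells (3 animals), and 0 with calls ignored, without a minimum of assays, after adjustment for the number of other assays, and in wells of the shared range of assays. In Cd3e wells of 6 animals, 24 were called with centred units and 0 after that adjustment; all alternatives on Cd3e wells were chosen after seeing the data. The 22 genes that differ in share became 7 with at least 30 assays, 14 without a filter on genes, and 0 with calls ignored, without a minimum of assays or with at least 10 wells. The 20 that differ in level became 13 with calls ignored, 3 with at least 10 wells and 6 in Cd3e wells of 4 animals. The number of assays gave 11.8 with at least 3 wells and 12.1 in Cd3e wells of 6 animals, both past the threshold with more animals. Leaving out 1 animal gave 18 (without 13-week M3) to 43 genes in mean log2Ex, 5 to 22 in share, 9 to 24 in level, and 0 to 1 for tetramers and for ages. Without the pairing (no replicate block), 34 genes differed in mean log2Ex, 25 in share and 4 in level. Where no cause is built into the alternative, the cause was not tested.

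Some named genes changed sign. In wells of the shared range of assays Ctla4 was -0.53, Pdcd1 -0.42, Icos -0.43, Cxcr3 -1.73, Irf4 -0.40, Tnf -1.29, Nfkb1 -0.85, Cd44 -0.10 and Il10 -0.013. After adjustment for the number of other assays Cxcr3 was -0.11, Foxp3 -0.24, Tbx21 -0.20, Tnf -0.25 and Ly6e -1.02, and in Cd3e wells Tbx21 -0.43, Nfkb1 -0.96 and Icam1 -0.18. Centred, Cd44 was -0.051, and in Cd3e wells Cd44 -0.64, Cd4 -0.37 and Gapdh -1.25. Cxcl10 was 0.047 with calls ignored. Cd3e was 1.41 in Cd3e wells and 1.75 in wells without Cd40, Cd80 and Cd86.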
